A study of Mus musculus with 2 samples.

Results

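The genes of lipoprotein remodelling, with enzymes, a transfer protein, receptors and carried proteins, were examined in normal and diabetic mouse liver. The set was fixed by symbol as Lcat, Lipc, Lpl, Pltp, Scarb1, Lrp1, Apom, Pon1 and Apoh. All 9 of these genes were found among the 8551 genes of the deposited table. The normal group is male C57BL/6 wild type mice and the diabetic group is male db/db mice, which the labels place on a C57BL/6 background as well. The db/db allele disrupts signalling by the leptin receptor in the whole body, so obesity, overeating and diabetes come together in this model. All livers were from mice of 9 weeks, taken about 3 h after lights on. There was 1 library per group, and the sources used here do not state how many livers went into a library. A difference between the libraries therefore has no replicate check, and genotype, obesity, diabetes and library cannot be told apart. The paper names a supplier of mice in Shanghai and another in Nanjing, without stating which group came from which, so the supplier may differ as well.

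Plasma lipoproteins are changed after they leave the liver. Lcat esterifies cholesterol on high density lipoprotein (HDL), and Pltp moves phospholipid between particles. The lipases Lpl and Lipc cut triglyceride and phospholipid of the particles. Scarb1 takes cholesteryl ester from HDL into the hepatocyte, and Lrp1 takes up whole remnant particles. Apom, Pon1 and Apoh are secreted by the liver, Apom and Pon1 mostly onto HDL.

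Each library counted short tags next to DpnII sites, where the enzyme cuts at GATC. The deposited value, named TPM by the authors, is the number of tags of a gene per 1000000 clean tags. It is not divided by transcript length. By the labels the cDNA was primed with random hexamers before the DpnII digest, and the site of a transcript that gave the tags is not stated. The sequenced tags were not used here, so a predicted tag for each gene was read from its longest RefSeq-matched coding transcript in GENCODE M21 as the site nearest the 3' end with the 16 bases after it. These predictions, with the DpnII site in capitals, are shown as the stretch that a library of tags from the last site would count, and whether the reads came from them was not tested.
Lcat: GATCacctcaacatggtctt
Lipc: GATCaatcatgcatccattt
Lpl: GATCtatctcagaggctata
Pltp: GATCccccttcctgagggta
Scarb1: GATCtgtcactcctaggggc
Lrp1: GATCccttggcatagggccc
Apom: GATCcggtggacaatattgt
Pon1: GATCctaactagcaagggtt
Apoh: GATCcaggaacagtttaaga
All 9 predicted tags were 20 bases long, and 0 other genes held any of them in GENCODE M21, on the strand of the transcript. The site lay in the coding sequence for Lcat, Pltp, Lrp1, Apom and Apoh. It lay in the 3' untranslated region for Lipc, Lpl, Scarb1 and Pon1. Apom had only 1 DpnII site in its transcript, 497 bases from the end, while the transcript of Lrp1 had 41 sites. The tag of Lipc lay closest to the end of its transcript, at 81 bases, and that of Lrp1 farthest from it, at 804 bases. The alternative transcripts of a gene did not always end in the same tag. The tag printed above was the last one in 1 of 4 coding transcripts of Apoh and of Lrp1, in 1 of 3 of Pon1, in 2 of 4 of Scarb1, in 2 of 3 of Lipc and in 3 of 5 of Pltp. Lcat, Lpl and Apom had 1 coding transcript each.

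The clean tags numbered 10278531 in normal liver and 13508232 in diabetic liver, computed from the equal steps of the deposited values. At these depths 1 tag, called a read below, was worth 0.0973 TPM and 0.0740 TPM. The 9 genes together had 23481 reads in normal liver and 36098 in diabetic liver. Over all listed genes the median log2 ratio of diabetic over normal TPM was 0.25, and 61.8% of the genes were higher in diabetic liver. Other scalings between the libraries (the sum of the listed genes, TMM, median ratio and upper quartile) lowered every log2 ratio by 0.25 to 0.31. Of the 9 hepatocyte markers, 7 were listed, and their summed level was 14712 TPM in normal liver and 15155 TPM in diabetic liver. Alb was at 6801 TPM and at 6912 TPM, and of the other 6 Cps1 and Asgr1 were at least 1.5-fold higher in diabetic liver, Hnf4a was lower by as much, and 3 were within 1.5-fold. Of the markers of lymphocytes and exocrine pancreas none was listed, 0 of 5 and 0 of 6. The hepatocyte markers Apoa2 and Serpina1b were not listed either, so a gene that is not listed, here or below, cannot be taken as not expressed. Cholangiocyte markers (3 of 5 listed) summed to 61.5 TPM in normal liver and to 107 TPM in diabetic liver, of which Spp1 alone had 57.2 TPM and 103 TPM and the other 2 markers together 4.28 TPM and 4.22 TPM. Stellate cell markers (7 of 9 listed) summed to 159 TPM and 203 TPM, with 2 at least 1.5-fold higher and 1 lower by as much. Dcn alone had 56.9 TPM and 84.4 TPM, and the other 6 stellate cell markers together 102.5 TPM and 118.6 TPM.

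Of the 9 genes, Apoh was higher in diabetic liver by 1.5-fold or more, and Lipc and Lpl were lower by as much. Of all listed genes, 34.4% were higher by this measure and 15.3% were lower. The same 3 genes also had a false discovery rate (FDR) under 0.001 in an exact binomial test of the recovered reads (two-sided). This test compares these libraries and not the conditions. All of the 9 genes but Pltp, 8 in number, were under this FDR, as were 37.6% of all listed genes. By both criteria 22.9% of all listed genes were higher and 8.19% lower. Under each of the 4 other scalings 0 of the 9 genes passed 1.5-fold on the higher side and 5 on the lower side, namely Lipc, Lpl, Scarb1, Lrp1 and Apom. Under the same scalings 21.9% to 24.0% of all listed genes passed it on the higher side and 23.7% to 25.6% on the lower side. The median log2 ratio of the 9 genes was -0.42 as deposited, and TMM scaling put it at -0.67. The same medians over all listed genes were 0.25 and 0.00.

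**Figure D1:**
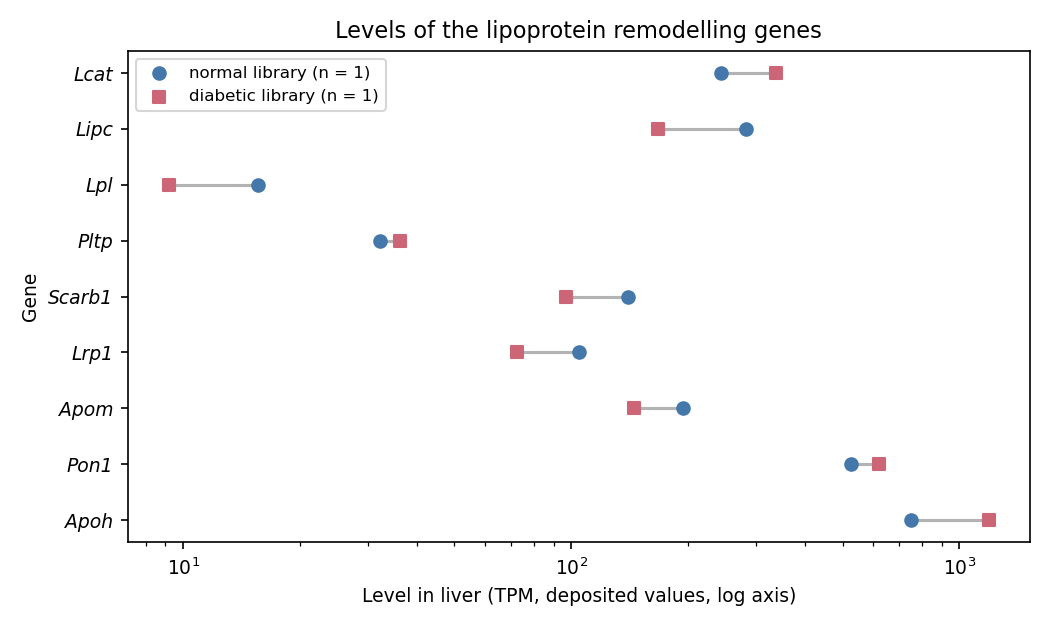
Level of each gene in TPM (log axis) in normal liver (circles) and the diabetic library (squares), 1 library each, ordered by role. The squares of Lcat, Pltp, Pon1 and Apoh lie to the right of the circles and those of the other 5 genes to the left, and Lcat and Lipc change places.

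Lcat, the enzyme that esterifies cholesterol on HDL, was at 243 TPM (2498 reads) in normal liver and at 336 TPM (4542 reads) in diabetic liver. It was 1.38-fold higher, a log2 ratio of 0.47 (95% Clopper-Pearson interval, 0.40 to 0.54). Like all intervals below, this one covers counting error only. Lcat was higher in diabetic liver under the deposited values and under each of the 4 scalings, where the log2 ratio was 0.16 to 0.22. It ranked 221st among the listed genes in normal liver and 214th in diabetic liver.

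Lipc, the hepatic lipase, was at 281 TPM (2892 reads) in normal liver and at 167 TPM (2261 reads) in diabetic liver. It was 1.68-fold lower, with a log2 ratio of -0.75 (95% interval, -0.83 to -0.67), which lay at percentile 11.1 of all listed genes. This percentile does not depend on the scaling. The 4 scalings, each of which lowers every log2 ratio, put Lipc at a log2 ratio between -1.06 and -1.002. Its rank among the listed genes went from 182 to 441.

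Lpl, the lipase that clears triglyceride in muscle and fat and is made at a low level in adult liver, had 160 reads (15.6 TPM) in normal liver and 124 reads (9.18 TPM) in diabetic liver. Its log2 ratio was -0.76, at percentile 10.8, with a wide 95% interval of -1.11 to -0.41 that reached under 1.5-fold. The FDR of Lpl in the exact binomial test was 3.6e-05. Lpl is also expressed by macrophages and by adipocytes. Of 12 markers of Kupffer cells and macrophages, 9 were listed, and their summed level was 331 TPM in normal liver and 196 TPM in diabetic liver. Most of this difference was C1qa, at 176 TPM and 50.7 TPM, and the other 8 markers summed to 154 TPM and 145 TPM. Of these 9 markers 5 were at least 1.5-fold lower, among them Csf1r, C1qa and the F4/80 gene Emr1, and 1, C1qb, was higher by as much, which under TMM scaling was 6 and 0. None of the 9 was at 0. The Kupffer cell lectin Clec4f had 15 reads in each library. Of 6 adipocyte markers, Cfd and Fabp4 were listed, with a summed level of 9.05 TPM in normal liver and 38.4 TPM in diabetic liver, while Adipoq and Plin1 were not among the listed genes. The part of these cells in the level of Lpl was not tested, and fewer cells of a type cannot be told apart from less RNA per cell in whole liver.

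The promoters of the 2 genes with the most reads among the 3 that differed at least 1.5-fold are shown, since they lay on opposite sides. They are from RefSeq on the build GRCm38.p6, and run from 250 bases before to 50 bases after the start of the transcript. RefSeq gave a pair of starts for Lipc. Capitals mark matches on either strand of AGGTCA, a core motif of nuclear receptors, and of the GC box GGGCGG.
Lipc, upstream start, chr9:70952172-70952471, minus strand: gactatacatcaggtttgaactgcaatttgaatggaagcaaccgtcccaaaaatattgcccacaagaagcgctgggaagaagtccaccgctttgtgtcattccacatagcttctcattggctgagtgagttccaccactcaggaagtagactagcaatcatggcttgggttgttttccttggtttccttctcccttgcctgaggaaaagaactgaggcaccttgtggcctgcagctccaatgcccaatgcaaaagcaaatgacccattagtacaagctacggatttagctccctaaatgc
Lipc, downstream start, chr9:70934759-70935058, minus strand: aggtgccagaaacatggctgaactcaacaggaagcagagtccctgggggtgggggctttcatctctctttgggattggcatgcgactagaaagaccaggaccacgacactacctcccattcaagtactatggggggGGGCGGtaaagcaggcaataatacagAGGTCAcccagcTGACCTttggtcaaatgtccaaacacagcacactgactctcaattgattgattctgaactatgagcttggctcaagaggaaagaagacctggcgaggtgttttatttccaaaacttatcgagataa
Apoh, chr11:108395047-108395346, plus strand: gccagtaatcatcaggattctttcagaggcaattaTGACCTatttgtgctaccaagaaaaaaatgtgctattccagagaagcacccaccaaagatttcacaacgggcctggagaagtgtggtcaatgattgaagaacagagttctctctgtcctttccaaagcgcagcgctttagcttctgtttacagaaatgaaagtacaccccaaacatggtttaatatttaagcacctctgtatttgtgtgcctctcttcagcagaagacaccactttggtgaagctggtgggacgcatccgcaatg
The downstream start of Lipc had 2 matches of AGGTCA, with 6 bases between them and facing opposite ways, and 1 of GGGCGG. The upstream start had no match of any of the 6 motifs searched, and Apoh had 1 match of AGGTCA. No matches overlapped in these windows. Of 32851 promoters of this length, 16.3% held AGGTCA and 35.7% the GC box. The HNF1 motif GTTAAT was in 7.1% of them and the E-box CACGTG in 7.15%. The sterol regulatory element, searched as TCACNCCAC, was in 1.24%, and the TATA box TATAAA in 13.6%. Promoters were matched for 7 of the 9 genes, and those of Lpl and Scarb1 were not used here. A match is a description of these letters and shows no binding.

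Pltp, the phospholipid transfer protein, was at 32.2 TPM (331 reads) in normal liver and at 36.1 TPM (488 reads) in diabetic liver. Its log2 ratio was 0.17, with a 95% interval of -0.04 to 0.37 and an exact binomial test FDR of 0.170. A difference was not detectable at this depth, and each of the 4 scalings turned the log2 ratio below 0, to between -0.14 and -0.09.

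Both receptors were lower in diabetic liver, and by nearly the same amount. Scarb1, the HDL receptor, was at 139.9 TPM (1438 reads) in normal liver and at 96.8 TPM (1307 reads) in diabetic liver, a log2 ratio of -0.53 (95% interval, -0.64 to -0.42). Lrp1, the remnant receptor, was at 104.6 TPM (1075 reads) and at 72.5 TPM (980 reads), a log2 ratio of -0.53 (95% interval, -0.65 to -0.40). The difference between these log2 ratios was 0.00, with a 95% Wald interval of -0.16 to 0.17. Scarb1 was 1.45-fold lower and Lrp1 1.44-fold lower, just under the threshold of 1.5, and both passed that threshold under each of the 4 scalings, where the log2 ratios lay between -0.84 and -0.78. Lrp1 and Scarb1 are also expressed by macrophages and endothelial cells. The 10 markers of sinusoidal endothelial cells were all listed and summed to 133 TPM in normal liver and 117 TPM in diabetic liver. Of these markers 2 were at least 1.5-fold higher, 2 at least 1.5-fold lower and none at 0. Clec4g alone was at 47.67 TPM and 30.65 TPM, and the other 9 markers together at 84.94 TPM and 86.76 TPM. The part of these cells in the levels of the receptors was not tested.

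**Figure D2:**
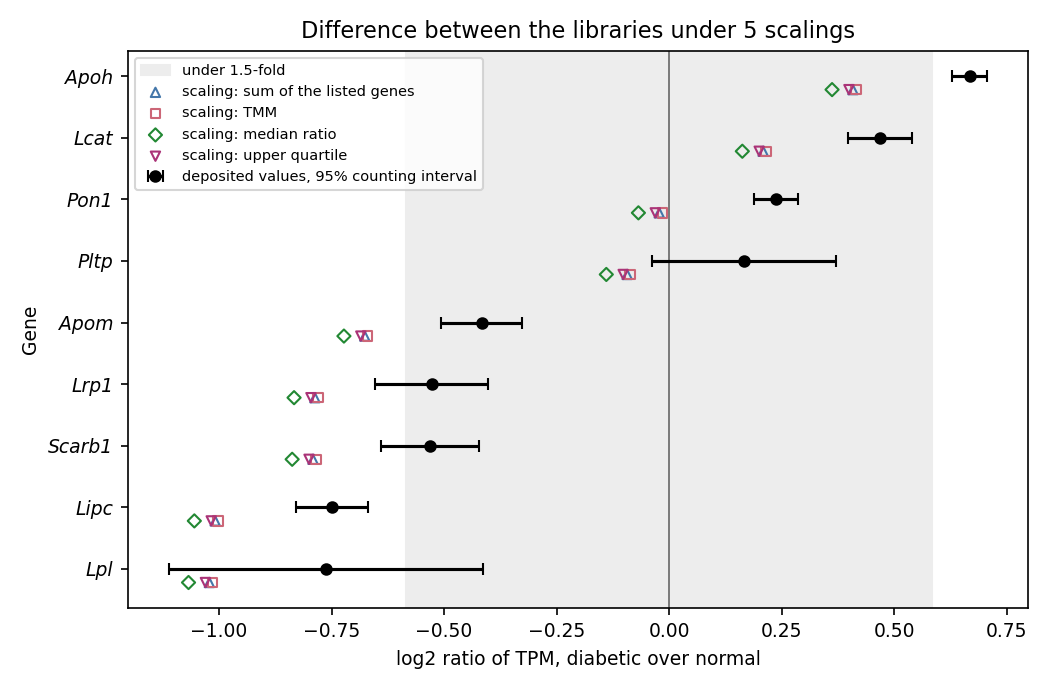
Log2 ratio of diabetic over normal TPM for each gene, with 95% counting intervals (black), and the same value under 4 other scalings between the libraries (open symbols), with the grey band under 1.5-fold. Apoh lies right of the band only under the deposited values, Lipc and Lpl lie left of it throughout, and Pon1 and Pltp cross 0.

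Among the secreted proteins, Apom, a lipocalin that carries sphingosine 1-phosphate on HDL, was at 193.6 TPM (1990 reads) in normal liver and at 145.0 TPM (1959 reads) in diabetic liver. It was 1.34-fold lower, its log2 ratio being -0.42 (95% interval, -0.51 to -0.33). With the 4 scalings its log2 ratio was -0.72 to -0.67, and Apom was then past 1.5-fold. Pon1, the HDL esterase that hydrolyses oxidised lipids and organophosphates, was at 525 TPM (5399 reads) and at 619 TPM (8365 reads), which gave a log2 ratio of 0.24 with a 95% interval from 0.19 to 0.29. Pon1 lay at percentile 49.2 of all listed genes, and its log2 ratio was below 0 under each of the 4 scalings, between -0.07 and -0.02.

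Apoh, also named beta-2-glycoprotein I, binds anionic phospholipid and is one of the abundant proteins of plasma. It had 7698 reads (749 TPM) in normal liver and 16072 reads (1190 TPM) in diabetic liver, the highest level of the 9 genes in each library. Its 1.59-fold higher level, a log2 ratio of 0.67 (95% interval, 0.63 to 0.71), lay at percentile 69.5 of all listed genes. It remained higher under each of the 4 scalings, with a log2 ratio of 0.36 to 0.41, but was then under 1.5-fold.

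By level, the order in normal liver was Apoh, Pon1, Lipc, Lcat, Apom, Scarb1, Lrp1, Pltp and Lpl, in TPM. In the diabetic library Lcat stood before Lipc and the order of the other 7 genes was as in normal liver. The ratio of Lcat to Lipc tags was 0.864 in normal liver and 2.01 in diabetic liver.

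A difference between the log2 ratios of 2 genes does not depend on the scaling between the libraries. Of the 36 pairs among the 9 genes, 28 differed beyond the 95% Wald interval of counting error, which was not adjusted over the pairs, and 19 differed at least 1.5-fold. Apoh and Lpl were farthest apart, by 1.43 on the log2 scale (95% interval, 1.09 to 1.77), and Apoh and Lipc by 1.42 (95% interval, 1.33 to 1.51). Lcat and Lipc, which act on the lipids of HDL, were 1.22 apart (95% interval, 1.11 to 1.32), and Lcat and Scarb1 1.00 apart (95% interval, 0.87 to 1.13). Apom and Pon1, which share the HDL particle, differed by 0.65 (95% interval, 0.55 to 0.76). The intervals of the other 8 pairs held 0. These were Lipc with Lpl, Scarb1 with Lrp1, Pon1 with Pltp, Apom with each of Scarb1, Lrp1 and Lpl, and Lpl with each of Scarb1 and Lrp1. For Lipc and Lpl the difference of 0.01 had an interval of -0.33 to 0.36, since Lpl had few reads.

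**Figure D3:**
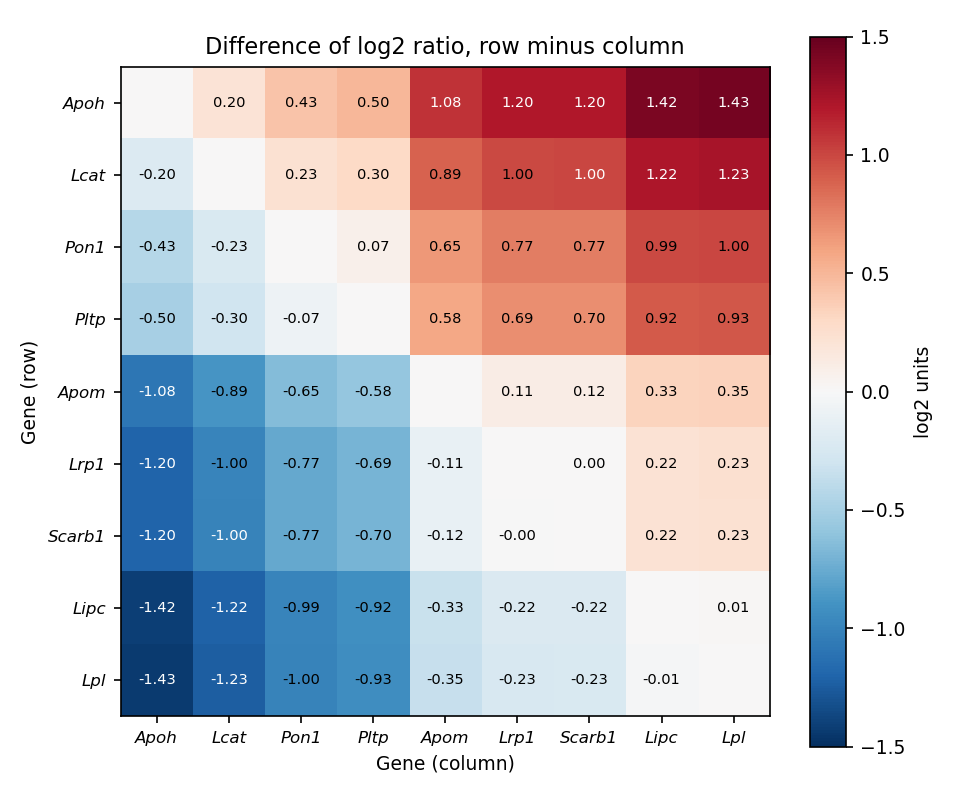
Difference of the log2 ratios of each pair of genes, row minus column, in log2 units. The corner blocks between Apoh, Lcat, Pon1 and Pltp on one side and Apom, Lrp1, Scarb1, Lipc and Lpl on the other hold the large values, from 0.58 to 1.43.

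Relative to all listed genes, Apoh and Lcat lay above the median log2 ratio, and the other 7 genes lay below it. Between percentiles 16.7 and 20.2 lay Scarb1, Lrp1 and Apom. The median size of the log2 ratio, without its sign, was 0.53 for the 9 genes and 0.58 for all listed genes. For each gene the listed gene nearest to it in log2 TPM of the 2 libraries was found, as a description of 2 points. For Scarb1 this was Abca1, the transporter that starts HDL formation, at 143.9 TPM in normal liver and 97.3 TPM in diabetic liver and a distance of 0.0413 log2 units. For Lcat it was Agt, for Lipc Rps9, for Lpl Ulk2, for Pltp Otc, for Lrp1 Sec11a, for Apom D14Ertd449e, for Pon1 Fn1 and for Apoh Azgp1, the last with the longest distance, 0.207.

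**Figure D4:**
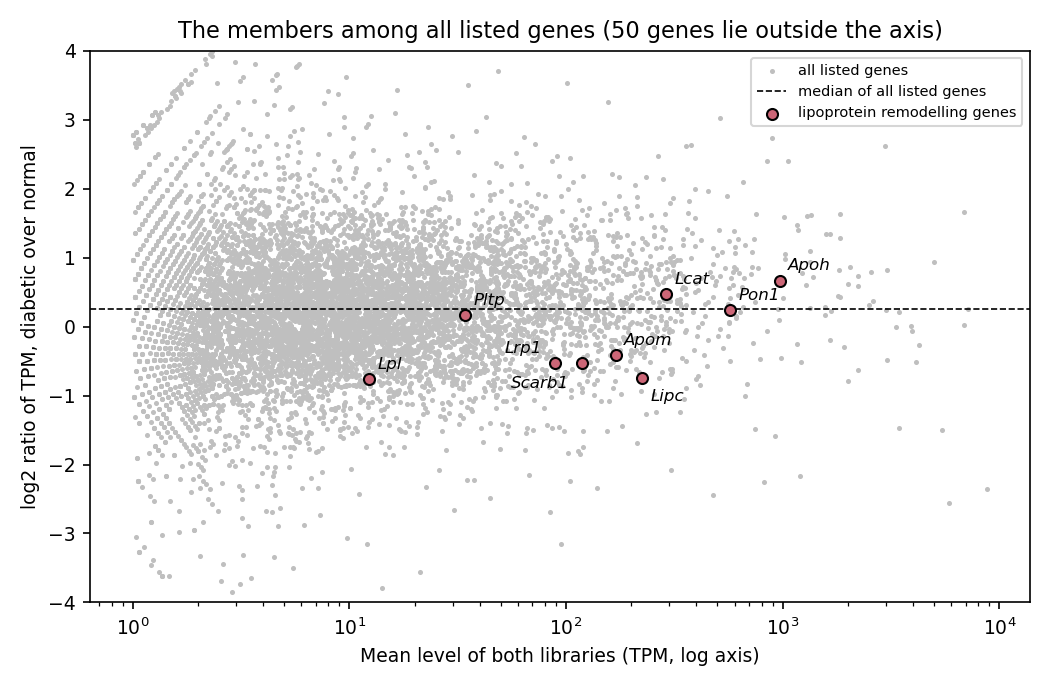
Log2 ratio of diabetic over normal TPM against the mean TPM of both libraries (log axis) for all listed genes (grey; 50 lie outside the axis) and the 9 genes (red), with the median of all listed genes at 0.25 (dashed). Apoh and Lcat lie above the dashed line, Pon1 and Pltp close to it, and the other 5 genes below 0.

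The wider pathway was described with 5 lists, which held 80 genes, of which 58 were listed. At least 1.5-fold higher were 25 of these 58 and at least 1.5-fold lower were 6. These were 43.1% and 10.3% of the 58 genes, against 34.4% and 15.3% of all listed genes. Under TMM scaling the numbers were 18 and 9, or 31.0% and 15.5%, against 24.0% and 23.7% of all listed genes. These shares of all listed genes are the background for each list below. The median log2 ratio of the 58 genes was 0.34 as deposited, and 0.09 with TMM scaling.

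Of the 14 genes of the list of lipases and their regulators, all were listed. At least 1.5-fold higher were 8 of them (57.1%), 7 with an FDR under 0.001 (against 22.9% of all listed genes by both criteria), and none was lower by 1.5-fold. Under TMM scaling these numbers were 6 and 1, the lower gene being Lmf2. The list's median log2 ratio was 0.77, and 0.52 under TMM scaling. Lipg, the endothelial lipase and a close relative of Lipc and Lpl, had 24 reads in normal liver and 69 in diabetic liver, a log2 ratio of 1.13 with a 95% interval of 0.44 to 1.86 and an exact binomial test FDR of 0.0018. Among the cofactors, the Lpl activator Apoc2 was at 506 TPM and at 1528 TPM, a log2 ratio of 1.59, and Apoc3, which slows clearance of triglyceride, had a log2 ratio of 0.80. Lmf1, which the lipases need to fold, had a log2 ratio of 0.87 (95% interval, 0.62 to 1.13). The proprotein convertases Pcsk6 and Pcsk5 had log2 ratios of 1.31 and 2.94, Pcsk5 with only 6 reads in normal liver.

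Of the 30 uptake receptors and partners, 23 were listed, of which 10 were at least 1.5-fold higher (43.5%) and 4 lower (17.4%), with a median log2 ratio of 0.39. Under TMM scaling 7 were higher and 4 lower, with a median of 0.13. Both criteria were met by 9 and 2 of them. Cd36, a fatty acid and lipoprotein receptor of the family of Scarb1, was 17.7-fold higher, with 124 reads in normal liver and 2883 in diabetic liver. Its log2 ratio was 4.15 (95% interval, 3.89 to 4.42). Scarb2, the lysosomal member of that family, had a log2 ratio of 0.45 (95% interval, 0.19 to 0.72). Vldlr had 0 reads in normal liver, which allows up to 0.292 TPM, and 34 in diabetic liver, and was at least 8.63-fold higher against that floor, a log2 ratio of 3.11. The 95% Clopper-Pearson interval of its log2 ratio began at 2.73, and the other scalings put the ratio against the floor at 2.80 to 2.86. Lsr, a receptor of triglyceride-rich particles, was at 63.2 TPM and at 19.8 TPM, a log2 ratio of -1.67. Lrp5, of the family of Lrp1 but known for Wnt signalling, had 49 reads and 6 reads, a log2 ratio of -3.44 (95% interval, -4.94 to -2.20), while Lrp10 had a log2 ratio of 1.29 (95% interval, 0.98 to 1.61). The heparan sulfate proteoglycan Sdc1, which binds remnants beside Lrp1, had 287 reads in normal liver and 837 in diabetic liver, which gave 1.15 on the log2 scale (95% interval, 0.95 to 1.35).

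HDL formation and sterol export had 11 genes in its list, of which 7 were in the table, with 4 at least 1.5-fold higher (57.1%) and 1 lower (14.3%), and all 5 had an FDR under 0.001. The lower gene was Apoa1, the main protein of HDL and the activator of Lcat, with a log2 ratio of -2.35. The higher genes were Apoa4 with a log2 ratio of 2.63, the sterol exporters Abcg5 and Abcg8 with 0.96 and 0.60, and Bmp1, a protease that processes the propeptide of apolipoprotein A-I, with 0.77. Under TMM scaling 2 genes of this list were higher and 3 lower, since Bmp1 and Abcg8 were then under 1.5-fold and Abca1 and Apoe were past it on the lower side.

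Of the 14 proteins carried on HDL, 8 were listed, and 1 was at least 1.5-fold higher (12.5%) and 0 lower. The higher gene was Pla2g7, a lipoprotein-bound phospholipase, with 14 reads in normal liver and 61 in diabetic liver. Pon2, a relative of Pon1, had the log2 ratio of 0.24 that Pon1 had, with a 95% interval of 0.02 to 0.45 and an exact binomial test FDR of 0.051, and the log2 ratio of Pon2 was below 0 under each of the 4 scalings. Pon3 had 70 reads in normal liver and 88 in diabetic liver, a log2 ratio of -0.06 (95% interval, -0.53 to 0.41). The list's median log2 ratio was 0.18, and -0.07 under TMM scaling.

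Of the 17 family relatives of the 9 genes, some of which are also in the lists above, 11 were listed, and 4 were at least 1.5-fold higher (36.4%) and 1 lower (9.09%). Beside Cd36 and Lipg these were Lcn2, a lipocalin as Apom is, with a log2 ratio of 2.10 (95% interval, 1.86 to 2.34), Pla2g15, the lysosomal relative of Lcat, with 0.96 (95% interval, 0.42 to 1.52), and the lipocalin Ptgds with 32 and 21 reads, a log2 ratio of -1.01 and an exact binomial test FDR of 0.025.

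**Figure D5:**
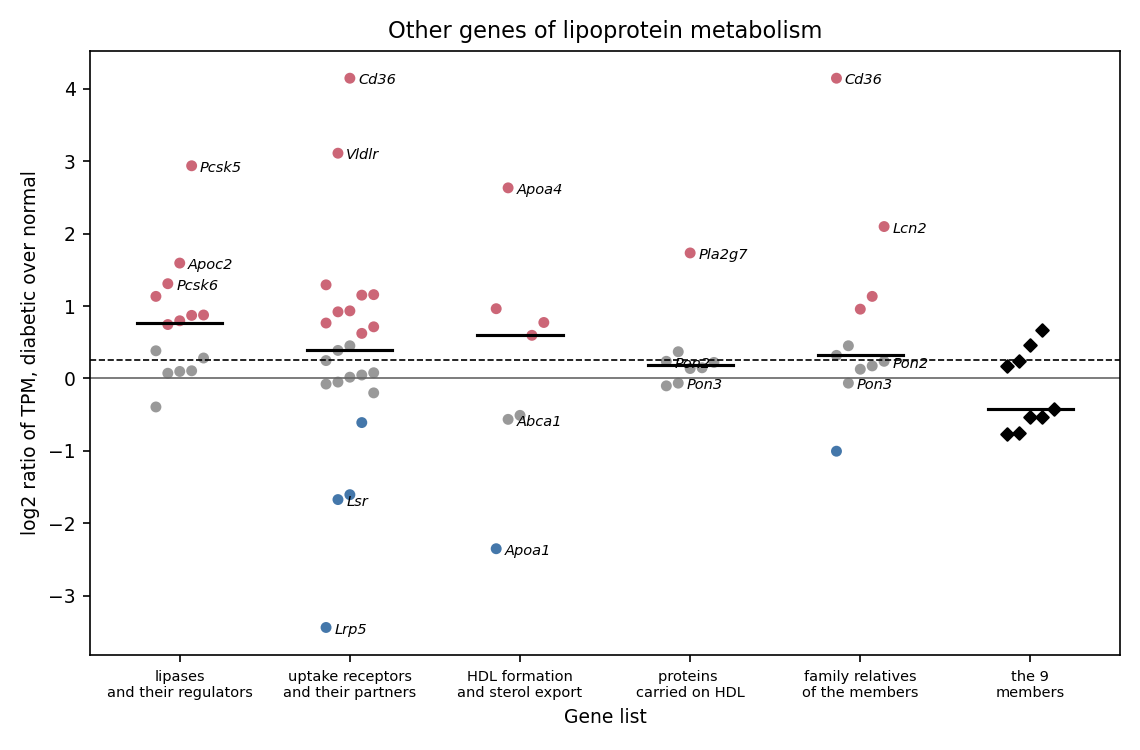
Log2 ratio of diabetic over normal TPM of the listed genes of 5 lists of lipoprotein metabolism and of the 9 genes (diamonds), with list medians (bars) and the median of all listed genes (dashed). Red is at least 1.5-fold higher, blue at least 1.5-fold lower, and Vldlr is plotted at its lower bound. The bar of the 9 genes, at -0.42, is below 0 and the bars of the 5 lists are above 0. Against the dashed line, at 0.25, the bar of proteins carried on HDL, at 0.18, is also below.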

How the data were processed

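Liver RNA of 1 normal and 1 diabetic library was measured with DpnII tags. The authors compared clean tags with RefSeq and deposited RPM values, named TPM, as tags of a gene per 1000000 clean tags, with 0.01 for no tag and genes under a mean of 1 left out. The submitters' processing notes name the build mm9. The aligner is not given in the sources used here. The paper separates tags mapped to unique genes from those mapped to multiple genes, but does not state whether the latter entered the deposited values.

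Reads were recovered from the equal steps of the deposited values. Within 0.0061 TPM, 8513 of 8513 values above the placeholder in normal liver and 8536 of 8537 in diabetic liver were whole reads. Fold changes are ratios of the deposited values. Their 95% Clopper-Pearson intervals were computed from reads and hold counting error only, and PCR copies of a tag are not told apart. A gene at 3 reads or fewer was set to 3 reads, and its fold change is a bound against that floor only. FDR values are from exact binomial tests (two-sided), adjusted by Benjamini-Hochberg over all 8551 genes. The thresholds, a fold of 1.5 and an FDR of 0.001, are those of the paper, which does not name its test. Wald intervals were used for pairs of genes.

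Members and lists were chosen with earlier results of these data known. Named genes are the 9 members, up to 6 genes per list that met both criteria, taken by absolute log2 ratio, the relatives Pon2, Pon3, Lipg, Scarb2 and Cd36, the receptor Vldlr, and the nearest gene of each member. Some genes that this rule names are not reported here. Cell type markers, Ptgds, Lmf2 and Apoe were named after their values were seen. Angptl8 is listed as Gm6484, and Tf as Trf. For TMM, 30% of log ratios and 5% of abundances were trimmed at each end. The median ratio was taken over genes of 10 TPM or more on average, and the upper quartile at percentile 75. Other alternatives were pseudocounts, a minimum of 5 TPM, a fold of 2 and the Audic-Claverie test.

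On simulated reads of 8551 genes at the depth of this comparison, the reads of 8551 genes were recovered, and 155 of 200 genes changed 3-fold and 0 unchanged genes were called. The simulated reads held counting error only, so this gives no rate of false calls between real libraries. Tags were predicted from GENCODE M21 and promoters taken from RefSeq, both on GRCm38, and no coordinates of the files were used. The software was Python 3.11.15 with scipy 1.17.1, numpy 2.4.6, matplotlib 3.10.9 and pandas 2.3.3.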

Additional observations from a re-analysis of the deposited data

How the results depend on the processing

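Under each of the 4 other scalings the members at least 1.5-fold higher went from 1 to 0 and those at least 1.5-fold lower from 2 to 5, with and without the FDR criterion. With a fold threshold of 2 both numbers were 0 for the deposited values, while Lipc and Lpl were past 2-fold lower under each of the 4 scalings. Each of these scalings lowers every log2 ratio, so the 5 genes that were lower as deposited could not become higher. Apoh and Lcat remained higher under them, while the log2 ratios of Pon1 and Pltp went below 0. Of the wider lists, 25 genes were at least 1.5-fold higher, 16 under median-ratio scaling and 12 at least 2-fold, and 6 were lower, 2 after a minimum of 5 TPM on average. Of all listed genes, 34.4% were at least 1.5-fold higher as deposited and 21.9% to 24.0% under the 4 other scalings. The lower side held 15.3% as deposited and 23.7% to 25.6% under those scalings. Shares of all listed genes at 2-fold or with the 5 TPM minimum were not computed. The log2 difference of 1.43 between Apoh and Lpl, which has no scaling, was within its interval with a pseudocount of 1 TPM. Pseudocounts of 0.1 and 1 TPM and the Audic-Claverie test changed no number of members past 1.5-fold. No paired analysis was possible because each group has 1 library, and for the same reason no replicate could be left out. Lpl, with 160 and 124 reads, is the member for which depth limits the precision most.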
